A study of Mus musculus with 4 samples.

Results

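The 10 genes described here build the MHC class I complex and load it with peptide, and were taken as a fixed list of symbols (H2-K1, H2-D1, B2m, Tap1, Tap2, Tapbp, Psmb8, Psmb9, Psmb10 and Nlrc5) out of 18605 genes listed in all 4 count tables. All 10 were found in every table. The list sets no threshold on measured values, but it was drawn up with earlier results of these data known. LLC cells, a mouse Lewis lung carcinoma line, were grown as subcutaneous tumors in mice of strain C57/BL6N aged 6-8 weeks, and cells were captured 72 h after radiation with a microwell kit that reads the 3′ ends of messenger RNA. The mock-treated control (NT) was 1 library of 3 tumors pooled, and the radiotherapy group (RT1, RT2 and RT3) was 3 libraries of 1 tumor each that received 24 Gy in 3 fractions of 8 Gy on days 7-9. Every library therefore came from the same implanted line in the same host strain. RNA molecules were counted by unique molecular identifiers (UMIs), with 69667759 in NT, 78585759 in RT1, 108699844 in RT2 and 85660188 in RT3.

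Class I molecules show peptides made inside a cell to CD8 T cells and to receptors of natural killer cells. Proteins are cut by the proteasome, peptides enter the endoplasmic reticulum through a transporter, and there they are fitted into a heavy chain paired with beta-2 microglobulin. Interferon gamma induces most genes of the pathway, exchanges the catalytic proteasome subunits for inducible ones and raises NLRC5, the class I transactivator.

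The promoters of the structural genes are shown because the same motif letters recur in them, and the levels below are ordered by the genes' roles. Each run holds the bases before an annotated RNA start, 5′ to 3′ along the gene, from RefSeq on build GRCm38.p6. The H2-K1 run lies inside the gene span listed on GRCm38.p6, chr17:33996012-34000619, so its start is not the outer end of that span. The submitters' notes name GRCm39 for the counts, which carry no coordinates. Capitals mark matches on either strand to an interferon response element (TTTCNNTTC), an NF-kappaB site (GGGATTCCC), an X2 box core (TGACG) or a Y box core (ATTGG), which did not overlap in these runs.
H2-K1, minus strand of chr17:34000348-34000597: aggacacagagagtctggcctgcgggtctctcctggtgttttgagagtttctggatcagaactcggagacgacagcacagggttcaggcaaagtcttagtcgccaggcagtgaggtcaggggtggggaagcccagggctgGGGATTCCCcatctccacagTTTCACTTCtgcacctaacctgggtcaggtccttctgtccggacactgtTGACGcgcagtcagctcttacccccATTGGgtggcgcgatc
H2-D1, plus strand of chr17:35262844-35263093: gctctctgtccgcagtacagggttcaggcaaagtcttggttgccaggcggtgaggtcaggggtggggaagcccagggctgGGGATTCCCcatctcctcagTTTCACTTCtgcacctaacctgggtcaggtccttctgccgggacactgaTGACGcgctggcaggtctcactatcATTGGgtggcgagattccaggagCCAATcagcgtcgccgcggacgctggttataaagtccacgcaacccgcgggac
B2m, plus strand of chr2:122147437-122147686: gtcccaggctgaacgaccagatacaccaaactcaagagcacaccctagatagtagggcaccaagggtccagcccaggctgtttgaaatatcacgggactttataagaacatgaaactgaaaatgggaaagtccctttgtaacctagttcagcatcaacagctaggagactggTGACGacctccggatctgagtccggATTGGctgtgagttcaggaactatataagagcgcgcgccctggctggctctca
Tap1 and Psmb9, the bases between their opposed starts, chr17:34187331-34187555, read along Tap1: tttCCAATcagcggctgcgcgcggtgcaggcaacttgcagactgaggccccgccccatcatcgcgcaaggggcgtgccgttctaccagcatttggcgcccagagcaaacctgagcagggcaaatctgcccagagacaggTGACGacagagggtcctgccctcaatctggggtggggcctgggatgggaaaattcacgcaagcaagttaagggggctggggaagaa
In H2-K1 and H2-D1 the NF-kappaB, interferon, X2 and Y letters stood in the same order with the same spacing, 20, 49 and 25 bases between their first letters. The 99 bases from the first to the last of them were identical at 88 positions. Tap1 and Psmb9 start 225 bases apart in opposite directions and so share 1 X2 core and 1 Y core.

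The RefSeq entries used here held a window for 8 of the 10 members, not for Tap2 and Nlrc5. Over 250 bases before the start, the X2 core occurred in 5 of these 8 against 17.8% of 27025 genes, and the Y core in 6 of 8 against 34.5%. The NF-kappaB letters were in 2 of 8 (H2-K1 and H2-D1) against 0.315%, and the interferon letters in the same 2 against 6.35%. Tap1 and Psmb9 count the same X2 and Y cores, and the H2-K1 and H2-D1 runs are alike, so these 8 windows are not independent. A match only describes these letters.

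Cells were sorted into classes by marker genes and UMIs were summed over each class in each library. Of 55058 barcodes kept, 30960 were tumor cells, 7833 were macrophages and 6073 monocytes. Another 1650 were lymphocytes, 549 dendritic cells, 567 neutrophils, 410 fibroblasts and 301 endothelial cells, and 6715 stayed unnamed. No gene of the tumor marker list was among the 10 leading genes of a tumor cluster, and the name rests on the list's level, as in Rhox5 at 1059, 1312, 1197 and 1184 CPM in tumor cells against 38.6, 58.1, 46.7 and 77.2 in macrophages of NT, RT1, RT2 and RT3. In NT, Krt8, Hmga2 and Krt18 were at 790, 446 and 23.6 CPM in tumor cells against 28.6, 22.3 and 1.11 in macrophages. The rest of the 7 genes, Prl2c3, Prl2c2 and Epcam, were hardly read in NT tumor cells, at 0.096, 0.37 and 0.016 CPM. Epcam was at 24.1 CPM in NT lymphocytes. The lymphocyte cluster was led by granzyme genes (Gzmd, Gzmf, Gzmc), so cytotoxic cells weigh heavily in it. Levels are counts per 1e6 UMIs of the class (CPM). Each RT library was set against NT as a log2 ratio after adding 1 CPM to both. Because NT was 1 library, no test between NT and RT was possible, and the spread over the 3 RT tumors is the only biological error. A gene was called higher or lower when its log2 ratio reached 0.5 in 1 direction against every RT library. The median UMIs per tumor cell were 7478 in NT, 6214 in RT1, 9074 in RT2 and 6438 in RT3. The RT2 table had been filtered differently, with gene symbols only and no barcode above 11.95% mitochondrial UMIs.

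Tumor cells carried less class I RNA than macrophages for 8 of the 10 members in 4 of 4 libraries, with and without radiation, where 26.5% of 9353 genes tested in both classes were lower. CPM depends on the rest of a class's RNA, and the median gene was 0.47 ± 0.02 (SD, n = 4) higher in tumor cells than in macrophages on the log2 scale. Relative to that median, 9 of the 10 members were lower in tumor cells in 4 of 4 libraries, where 41% of genes were. B2m, which encodes the light chain of every class I molecule, was at 3459 CPM in NT tumor cells, 3692 in RT1, 4008 in RT2 and 3577 in RT3, against 7016, 7834, 7757 and 7844 in macrophages of the same libraries. The tumor cell level was 45.6% to 51.7% of the macrophage level, and the ranges did not overlap. Tumor cells had the lowest B2m of the 5 classes with at least 50 NT cells in each library. At least 1 UMI of B2m was found in 99.3% of tumor cells in NT, 99.7% in RT1, 99.7% in RT2 and 99.4% in RT3. Thinned to 1000 UMIs per cell, these shares were 93.8%, 93.6%, 95.6% and 93.0%, against 99.0%, 99.3%, 99.3% and 99.2% of macrophages. No class here lacks B2m, so the share that free RNA alone would give was not measured.

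H2-K1, 1 of the classical heavy chains, was at 1442, 1574, 2154 and 1513 CPM in tumor cells of NT, RT1, RT2 and RT3. In macrophages it was at 2402, 3605, 3808 and 3742 CPM, so that the tumor level was 40.4% to 60.1% of theirs. H2-D1, the other classical heavy chain, was closer, at 4502, 4429, 5388 and 4596 CPM in tumor cells against 5298, 7649.95, 7034 and 7795 in macrophages. In each of the 4 libraries tumor cells lay farther below macrophages for H2-K1 than for H2-D1, by 1.01 ± 0.28 (SD, n = 4 libraries) on the log2 scale for H2-K1 and 0.54 ± 0.28 for H2-D1. Against all named host cells the gap of H2-D1 was 0.36 ± 0.20. For H2-D1 tumor cells ranked lowest of the 5 classes in NT and second highest in RT2, and for H2-K1 lowest in NT, RT1 and RT3 but above monocytes in RT2.

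Tap1 and Tap2 encode the paired chains of the peptide transporter, and their CPM lay on opposite sides of the tumor and macrophage comparison. Tap1 was lowest in tumor cells in every library, at 59.0, 59.3, 109 and 63.9 CPM against 147, 123, 188 and 154 in macrophages. Dendritic cells, the class with the most Tap1, had 404, 334, 466 and 402 CPM. Tap2 ran the other way, at 158, 102, 142 and 114 CPM in tumor cells against 123, 70.4, 92.2 and 80.6 in macrophages, which put tumor cells at 129% to 154% of the macrophage level. The log2 difference from macrophages was -1.10 ± 0.24 for Tap1 and 0.50 ± 0.11 for Tap2 (SD, n = 4), and each kept its sign in 4 of 4 libraries. Tap2 was thereby on the side of 59.8% of all genes tested, and relative to the median gene it was at 0.03 ± 0.11, below 0 in NT and above it in RT1, RT2 and RT3, where Tap1 was at -1.57 ± 0.23. Tapbp, the tapasin that holds the heavy chain at the transporter, did not differ beyond its spread, at -0.02 ± 0.21, but was at -0.49 ± 0.19 relative to the median gene.

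The inducible proteasome subunits were also lower in tumor cells. Psmb8, Psmb9 and Psmb10 lay below macrophages by 0.59 ± 0.32, 1.04 ± 0.36 and 0.91 ± 0.30 on the log2 scale (SD, n = 4), each in 4 of 4 libraries. Nlrc5 was at 31.2, 24.2, 32.3 and 26.2 CPM in tumor cells and 46.7, 36.7, 45.5 and 47.7 in macrophages. Among the 5 classes with at least 50 NT cells its highest levels were in dendritic cells, at 135, 93.0, 107 and 62.8 CPM, and in lymphocytes, at 123, 93.4, 97.1 and 70.5. Tumor cells had the lowest Tap1, B2m, Psmb8, Psmb9 and Nlrc5 of the 5 classes in every library. Over the 10 members the median log2 difference between tumor cells and macrophages was -0.69 in NT, -0.81 in RT1, -0.60 in RT2 and -0.99 in RT3.

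The 8 host myeloid markers summed to 21.7, 114, 123 and 64.2 CPM in tumor cells, 0.0827%, 0.288%, 0.324% and 0.194% of the macrophage sum. Lyz2, the most abundant of them, was at 12.6, 74.5, 67.6 and 38.5 CPM in tumor cells against 15768, 26668, 22926 and 21610 in macrophages, and none of the 8 was at 0. In the other direction the tumor marker list summed to 90.5, 133, 116 and 198 CPM in macrophages, against 2319.8, 2371, 2336 and 2352 in tumor cells. Both lists were higher in the irradiated libraries in the class they do not define, and the part of the tumor list in the macrophage ratios was not tested. In tumor cells without any UMI of the 8 host markers, the mean log2 ratio of Psmb9 between RT and NT was 1.45, against 1.47 in all tumor cells.

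**Figure D1:**
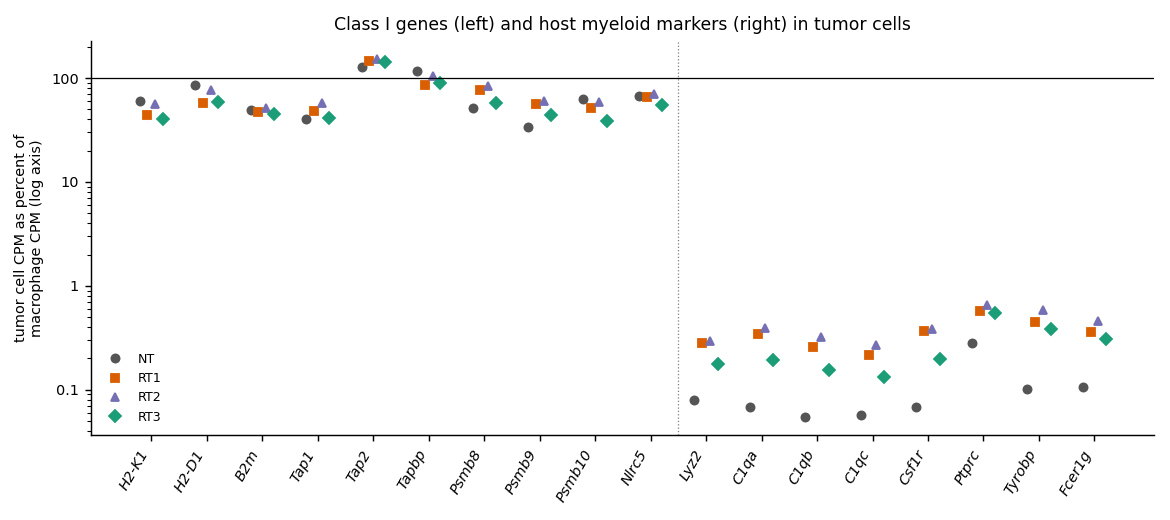
Level in tumor cells as a percentage of the level in macrophages of the same library (log axis), for the 10 class I genes left of the dotted line and the 8 host myeloid markers right of it. Points are the 4 libraries, and the line marks 100%. Tap2 lies above the line in 4 of 4 libraries on this CPM scale (not in NT relative to the median gene), while the host markers lie under 1%.

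Classes that had fewer than 50 NT cells were read by level only. Endothelial cells had the highest B2m of all 8 classes in NT, at 9767 CPM, with 8118, 7691 and 8443 in RT1, RT2 and RT3. Fibroblasts were at 7963, 7892, 6035 and 7486 CPM and neutrophils at 4175, 3369, 4430.4 and 3875. Neutrophils in NT, 18 cells, held 0 UMIs of 5 members (Tap2, Psmb8, Psmb9, Psmb10 and Nlrc5), which allows up to 159 CPM for each at 3 counts. Fibroblasts in NT, 17 cells, held 0 UMIs of Psmb10, which allows up to 32.6 CPM. Ratios to NT are not given for these classes.

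**Figure D2:**
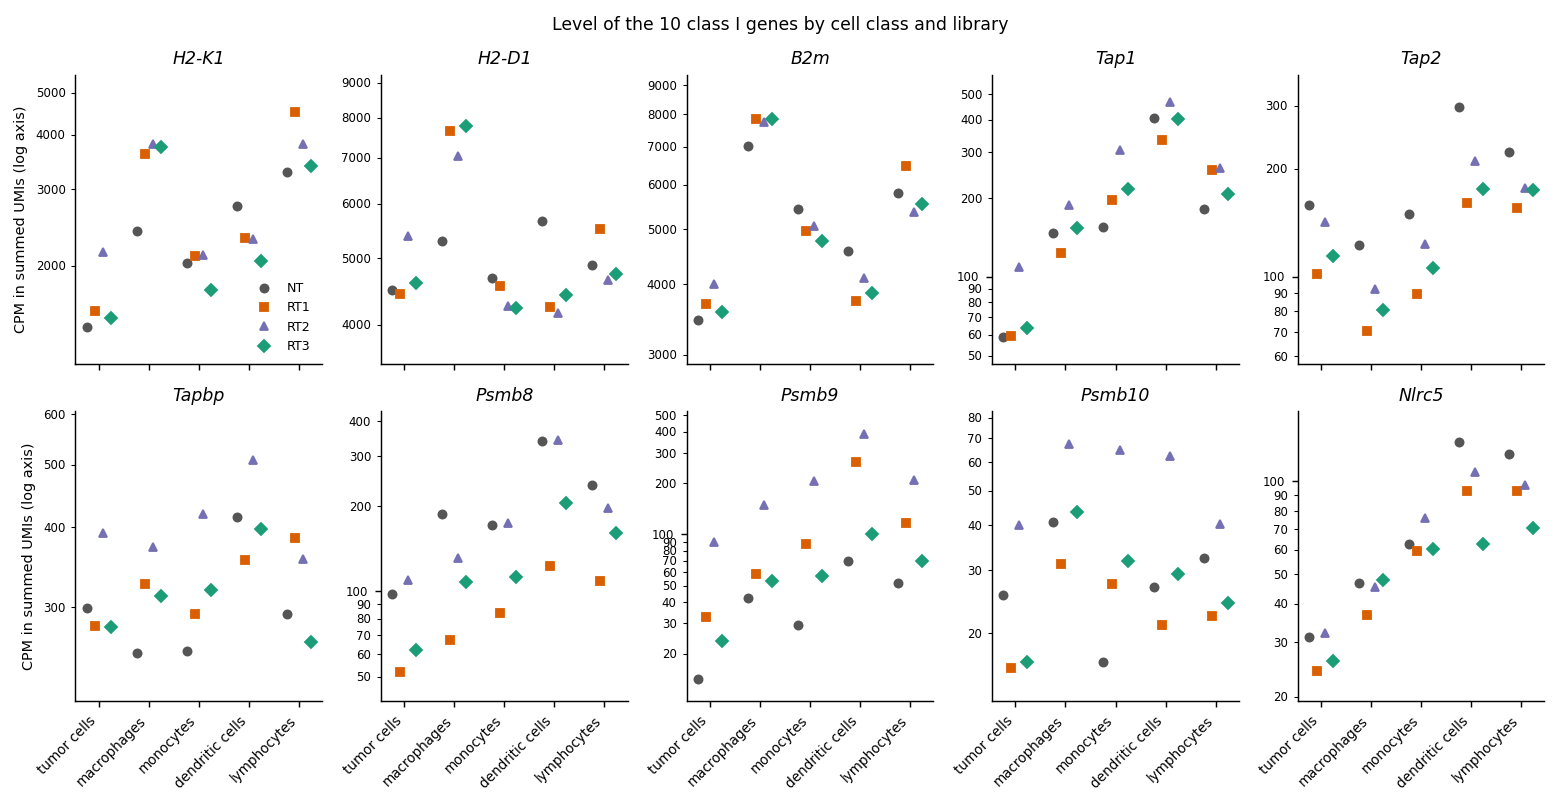
CPM of each member (log axis, 1 panel a gene) in the 5 classes with at least 50 NT cells. Points are the 4 libraries. Tumor cells are lowest for B2m, Tap1, Psmb8, Psmb9 and Nlrc5 in each library, and RT2 is the highest library for Tap1, Psmb9 and Psmb10 in all 5 classes.

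For irradiated against control tumors, the list as a whole showed no common direction in tumor cells. The median log2 ratio of the 10 members was -0.06 in RT1, 0.32 in RT2 and -0.03 in RT3, beside 0.02, -0.01 and -0.03 over 12591 genes tested. Of the 10 members, 4 were higher in each RT library than in NT (H2-K1, B2m, Psmb9 and Tap1, the last by 0.01 in RT1), 1 was lower in each (Tap2) and 5 lay on both sides, where 31% of all genes tested were higher in each and 31.7% lower in each. Psmb9 was the 1 member called higher, where 4.91% of all genes tested were called higher. No member was called lower, where 1.07% of genes were. With 10 CPM added in place of 1, Psmb9 kept a mean ratio of 1.11 but was not called. Without RT2, 3 members were called, Psmb9 higher, where 5.7% of all genes were, and Psmb8 and Psmb10 lower, where 3.49% were. In the tumor cell sums the fibroblast list was at 959 CPM in NT against 1843, 1437 and 1451. The monocyte list was at 126 CPM against 218, 233 and 203, and the dendritic list at 413 against 237, 314 and 287. Their part in the class I values was not tested.

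Tumor cell H2-K1 differed from NT mainly in RT2, with log2 ratios of 0.13, 0.58 and 0.07 in RT1, RT2 and RT3. B2m had ratios of 0.09, 0.21 and 0.05, and H2-D1 had -0.02, 0.26 and 0.03. Tap1 had 0.01, 0.88 and 0.11. RT2 was thus the high library for H2-K1, H2-D1, B2m and Tap1, and RT1 and RT3 stood closer to NT for these 4 genes. Irf1, an early target of interferon signaling, did not follow that order, at 809, 469, 621 and 633 CPM in NT, RT1, RT2 and RT3, and was lower than NT in all 3 RT libraries. Tapbp, at 299, 281, 391 and 279 CPM, and Nlrc5 also had their highest RT value in RT2.

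In macrophages the CPM of the heavy chains was higher in every irradiated tumor. H2-K1 had log2 ratios of 0.59, 0.66 and 0.64 (mean 0.63 ± 0.04, SD, n = 3) and was the 1 member called higher, where 9.73% of 9817 genes were. H2-D1 had 0.53, 0.41 and 0.56, and B2m had 0.16, 0.14 and 0.16, both above NT in 3 of 3. When clusters were drawn more finely (Leiden resolution 1.2), the mean ratio of H2-K1 was 0.55 ± 0.09 and no member was called. Tapbp was at 255 CPM in NT against 326, 372 and 313. Psmb8 was the 1 member called lower, where 6.92% of genes were, at 188 CPM in NT against 67.5, 131 and 108. This call was also lost at resolution 0.4, without integration of the libraries, relative to the median gene and with 10 CPM added. Over the alternatives tried, the mean ratio of Psmb8 ranged from -1.13 to -0.66. Without RT2, 4 members were called, with H2-D1 added as higher and Tap2 as lower, where 13.3% and 9.57% of all genes were called in those directions. The median over the members was -0.05, 0.38 and 0.13, beside 0.03, -0.03 and 0.03 over all genes tested. In the same sums the host myeloid list was at 26242 CPM in NT against 39644, 37827 and 33161, and the neutrophil list at 24.1 against 88.1, 129 and 93.5. Of the host list, Lyz2 was at 15768 CPM in NT against 26668, 22926 and 21610. C1qb, Csf1r and Tyrobp were also higher in each RT library, Ptprc and Fcer1g were lower in each, and C1qa and C1qc lay on both sides. The fibroblast list was at 36.0 CPM against 90.0, 80.9 and 116, and the dendritic list at 76.1 against 26.6, 27.8 and 49.8. Their part in the class I values was not tested.

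Macrophages came from 4 clusters, and their mix differed between libraries. The largest, led by Marco, Ms4a7 and Folr2, made up 60.3% of macrophages in NT against 72.7%, 71.3% and 71.0% in the irradiated tumors. Within it H2-K1 kept ratios of 0.55, 0.67 and 0.66 and H2-D1 0.47, 0.38 and 0.54. In a shallow cluster led by the mast cell genes Cpa3, Cma1 and Tpsb2, H2-K1 had 0.49, 0.53 and 0.47. Those 3 genes had 0 UMIs in its NT, RT1 and RT2 cells, and in RT3 they were read in 1.05% to 1.40% of its cells. Without that cluster the mean ratio of H2-K1 was 0.64, and H2-K1 and Psmb8 were still the members called. In a Cd52 and Cd72 cluster H2-K1 had 0.55, 0.40 and 0.31. In the smallest, a cluster of 163 cells led by Fcrls, Syce2 and Cdkn3, it had 0.29, 0.03 and 0.28, so that H2-K1 lay above NT in each RT library in all 4 clusters. H2-D1 did so in 3 of them and lay on both sides in the smallest, at 0.14, -0.13 and 0.45.

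The proteasome subunits differed between macrophage clusters. In the Cd52 and Cd72 cluster Psmb8 was at 508 CPM in NT and 281, 402 and 326 in RT, against 139, 55.7, 107 and 83.3 in the largest cluster. That Cd52 and Cd72 cluster made up 15.01% of macrophages in NT but 4.57%, 8.24% and 10.8% in RT. Within the largest cluster alone Psmb8 had ratios of -1.31, -0.38 and -0.74, which no longer meets the call, and Psmb9 had 1.16, 2.47 and 0.79. Psmb9 was below NT in each RT library in the Cd52 and Cd72 cluster, at -0.96, -0.02 and -0.23. It lay on both sides of NT in the Cpa3-led cluster, at -0.33, 1.51 and -0.04, but with only 6 NT UMIs. In the smallest cluster it had 1.32, 2.499 and -0.21, with 11 NT UMIs and 13 cells in RT3. Counting error is large for Psmb9 in these last clusters.

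Monocytes did not share the macrophage pattern. H2-D1 was at 4674 CPM in NT against 4561, 4261 and 4228 in RT, and B2m at 5429 against 4977, 5080.01 and 4763, both below NT in 3 of 3. H2-K1 had log2 ratios of 0.06, 0.07 and -0.20. Tap1 was higher in each RT library, at 155 CPM in NT against 197, 306 and 218, and so was Tapbp, at 256 against 293, 419 and 319. Psmb9 and Psmb10 were the 2 members called higher, where 15.9% of 7693 genes were, and none was called lower, where 4% were. Psmb10 rested on 13 NT UMIs, 16.6 CPM with an exact 95% Poisson interval of 8.86 to 28.5 (counting error only), against 27.4, 65.1 and 31.9 in RT, and was not called with 10 CPM added or relative to the median gene. The median over the members was 0.01, 0.17 and -0.10, below the 0.19, 0.09 and 0.17 of all genes tested in RT1 and RT3. In these sums the neutrophil list was at 74.3 CPM in NT against 175, 295 and 311, the fibroblast list at 48.7 against 133, 92.8 and 179, and the host myeloid list at 15125 against 19476, 15676 and 17480.4. Their part in the class I values was not tested.

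Dendritic cells, whose cluster was led by Ccl17, Ccr7 and Ccl22, had less of the heavy and light chains in the irradiated tumors. H2-K1 was at 2737 CPM in NT and 2320.5, 2298 and 2049.9 in RT, H2-D1 at 5658 against 4244, 4159 and 4414, and B2m at 4575 against 3741, 4098 and 3866. All 3 genes were lower in 3 of 3 libraries, as were Tap2 and Nlrc5. The share of all genes lower in 3 of 3 is not given for this class, so that count only describes these members. The member median was -0.31, -0.07 and -0.30 beside 0.03, -0.01 and 0.05 over 2425 genes tested. The NT value is that of 81 cells. Of 6 related class I genes tested, 3 were lower in each RT library and 2 were higher in each. The share of all genes is not given for these counts either, so they only describe these genes. H2-Q7 was at 399 CPM in NT against 127, 221 and 197, and H2-M3 at 135 (25 UMIs) against 63.4, 72.5 and 71.1. H2-Q4 was also lower in each. H2-T23 had log2 ratios of 1.70, 1.92 and 1.00 (17 NT UMIs), and H2-T22 had 0.49, 0.84 and 0.31 (10 NT UMIs). In this class the dendritic marker list itself summed to 4402 CPM in NT against 3089.7, 2741 and 3305 in RT, and the tumor marker list to 75.4 against 169, 132 and 402. The monocyte list summed to 738 CPM against 1847, 1634 and 1539.5, and the host myeloid list to 2904 against 5224, 3199 and 3585. The part of these lists in the class I values was not tested.

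Lymphocytes had H2-K1 at 3277 CPM in NT against 4523, 3816 and 3384 in RT, above NT in 3 of 3. Tap1, at 182 CPM against 256, 262 and 207, was also higher in 3 of 3, while Nlrc5, at 123 against 93.4, 97.1 and 70.5, was lower. The member median was 0.17, 0.07 and -0.10, beside -0.05, -0.12 and -0.10 over 6149 genes tested. B2m and H2-D1 lay on both sides of NT. Tapbpl, a relative of tapasin that edits peptides, was at 36.2 CPM (30 UMIs) against 76.3, 74.3 and 73.97. The lymphocyte marker list summed to 6002 CPM in NT against 9548, 8786 and 7019 in these sums, the order of H2-K1, and the host myeloid list to 2036 against 3875, 3039 and 2373. The fibroblast list summed to 153 CPM against 360, 222 and 201, and the endothelial list to 30.2 against 75.0, 71.8 and 57.8. The neutrophil list summed to 2.41 CPM against 129, 61.7 and 12.7, and the dendritic list to 317 against 158, 110 and 184. Their part in the class I values was not tested.

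**Figure D3:**
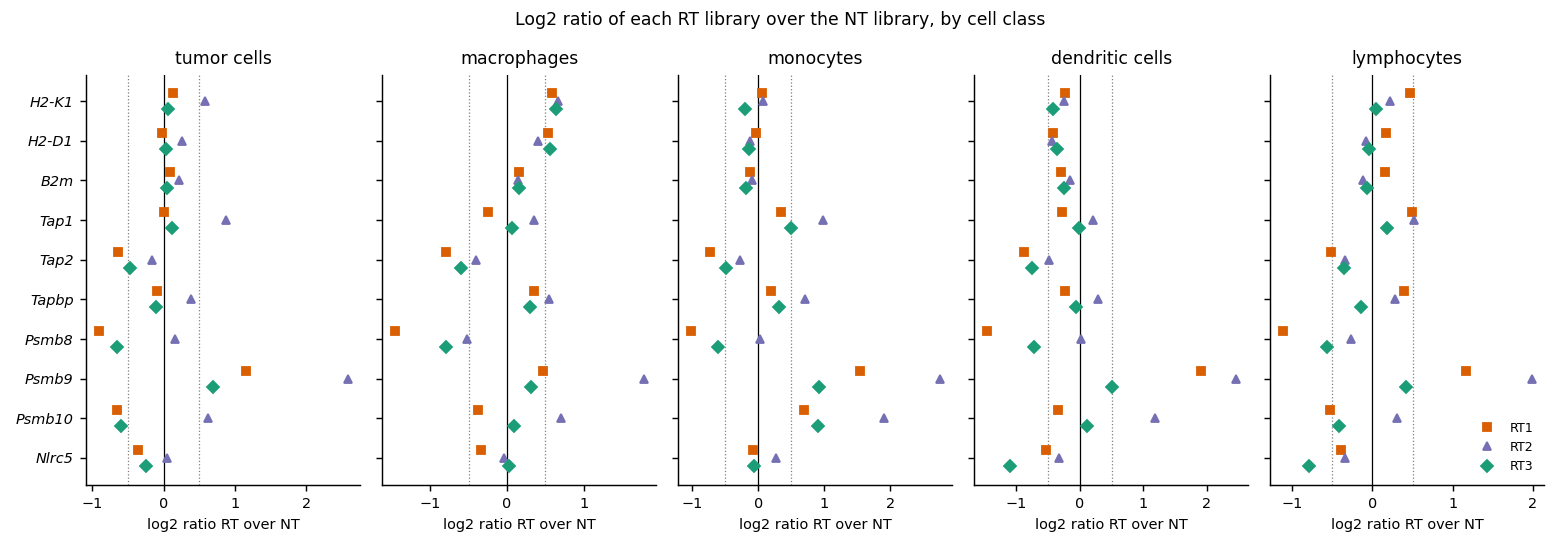
Log2 ratio of each RT library over NT for the 10 members, 1 panel a class, with the horizontal scale set separately for each panel. The solid line marks 0 and the dotted lines mark 0.5 in either direction. H2-K1 and H2-D1 lie right of 0 in macrophages and left of 0 in dendritic cells, while Psmb9 lies right of 0 and Tap2 left of 0 in all 5 classes.

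Psmb9 and Tap2 went the same way in all 5 classes. Psmb9, the inducible beta 1 subunit, was at 14.3, 32.9, 90.2 and 23.5 CPM in tumor cells, 42.3, 58.9, 148 and 52.9 in macrophages and 29.4, 87.6, 205 and 56.6 in monocytes of NT, RT1, RT2 and RT3. It was also higher in 3 of 3 RT libraries in dendritic cells and lymphocytes. In each of the 5 classes the order of the libraries was the same, RT2, RT1, RT3 and NT. Being higher in every RT library in tumor cells, macrophages and monocytes together was met by 14.2% of 7395 genes tested in all 3, and by Psmb9 among the members.

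Tap2 was the 1 member lower than NT in every RT library in those 3 classes, where 8.3% of genes were. Its log2 ratios were -0.63, -0.16 and -0.47 in tumor cells, -0.79, -0.41 and -0.60 in macrophages and -0.74, -0.28 and -0.49 in monocytes, and RT1 was the lowest library in each of the 5 classes. A difference that runs through cells as unlike as carcinoma cells and lymphocytes in the same libraries cannot be told apart from a difference between the NT library and the others, since NT was 1 library. The difference between Tap1 and Tap2, neighbors in function, was of this kind in tumor cells, where Tap1 was level with NT in RT1 and above it in RT2 and RT3, and Tap2 was below NT in each.

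Psmb8 and Psmb9 are induced together by interferon, yet they parted between these libraries. Psmb8, the inducible beta 5 subunit, was at 97.9, 51.7, 109 and 62.2 CPM in tumor cells. For each UMI of Psmb8 there were 0.146 UMIs of Psmb9 in NT tumor cells but 0.636, 0.824 and 0.378 in RT1, RT2 and RT3. Macrophages had 0.225 in NT and 0.873, 1.13 and 0.491 in RT, and lymphocytes 0.218 against 1.07, 1.05 and 0.432. The ratio was lowest in NT in all 5 classes. Psmb10, the inducible beta 2 subunit, was lowest in RT1 in tumor cells, macrophages, dendritic cells and lymphocytes.

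The inducible subunits replace the constitutive ones, Psmb5, Psmb6 and Psmb7, and their share of the 6 genes' UMIs was compared within each library. In tumor cells Psmb8, Psmb9 and Psmb10 held 47.9% in NT (95% Clopper-Pearson interval 47.2 to 48.7), 24.5% in RT1 (23.9 to 25.03), 47.6% in RT2 (47.1 to 48.1) and 31.1% in RT3 (30.5 to 31.7). Macrophages had 67.0%, 45.7%, 66.2% and 56.7%, and dendritic cells 85.3%, 65.5%, 81.7% and 62.0%. Tumor cells had the smallest inducible share of the 5 classes in each library. The intervals of NT and RT2 overlapped in all 5 classes, and those of RT1 and RT3 lay below them. The pooled share combined pairs that moved in opposite directions. In tumor cells Psmb9 held 24.99%, 50.6%, 68.1% and 36.8% of the UMIs of Psmb9 and Psmb6, while Psmb10 held 25.3%, 6.02%, 17.8% and 9.97% of those of Psmb10 and Psmb7. Psmb8 held 75.7%, 64.4%, 74.7% and 63.3% of its pair with Psmb5.

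The constitutive subunits differed between libraries too. Psmb7 was called higher in tumor cells, macrophages and monocytes, at 75.6, 249.8, 185 and 151 CPM in tumor cells, 46.0, 126, 100.1 and 82.6 in macrophages and 33.3, 157, 115 and 92.5 in monocytes. Psmb5 was at 31.4, 28.5, 37.0 and 36.0 CPM in tumor cells and Psmb6 at 42.8, 32.1, 42.2 and 40.5, both within a narrower range. Psmb7, like Psmb9, was higher in 3 of 3 libraries in all 5 classes.

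**Figure D4:**
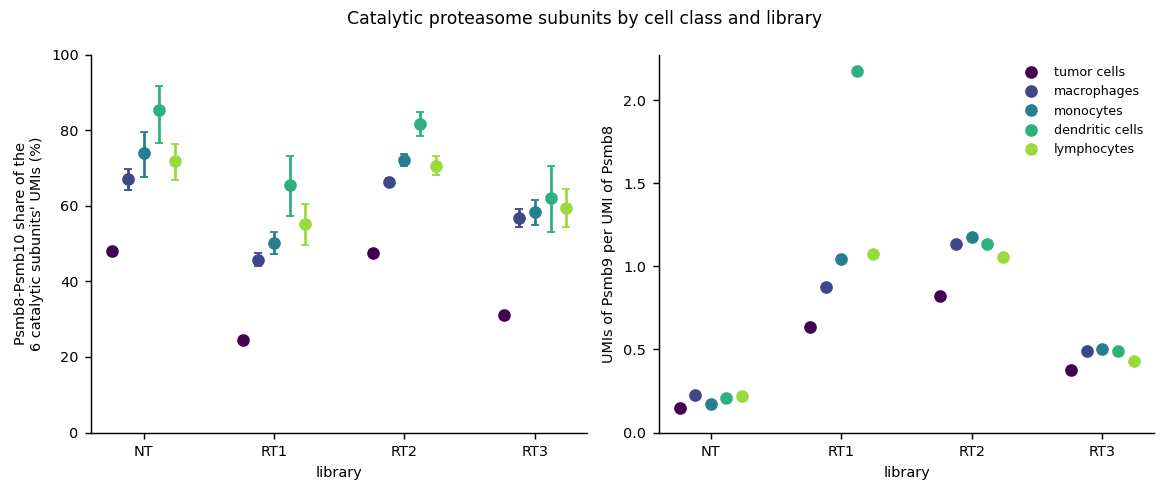
Left, the percentage of the UMIs of the 6 catalytic subunits that fell on Psmb8, Psmb9 and Psmb10, by library, with exact 95% intervals (counting error only). Right, UMIs of Psmb9 for each UMI of Psmb8. Colors are the 5 classes. The share is lowest in tumor cells in each library, and the ratio is lowest in NT in each class.

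Other genes of the pathway were read from a list of 29. Of these, 26 were tested in tumor cells, and 2 were called higher (H2-T23 and Psmb7) and 0 lower, where 4.91% and 1.07% of all genes were. H2-T23, which encodes Qa-1, a nonclassical class I molecule read by natural killer cells, was at 18.1, 41.3, 81.0 and 27.0 CPM in tumor cells and 105, 250.02, 358 and 208 in macrophages. It was higher in 3 of 3 RT libraries in all 5 classes and had the library order of Psmb9 in tumor cells. In macrophages 3 of 25 were called higher (H2-T23, Psmb7 and the interferon gamma receptor chain Ifngr1) and 2 lower (Pdia3 and Ifnb1), where 9.73% and 6.92% of all genes were. In monocytes 2 of 24 were called higher (H2-T23 and Psmb7) and 2 lower (H2-Q7 and Ifnb1), where 15.9% and 4% were.

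Chaperones of class I assembly showed no common direction. Calr, the lectin chaperone of the loading complex, was higher in each RT library in tumor cells, monocytes, dendritic cells and lymphocytes but in 1 of 3 in macrophages. Pdia3, the disulfide isomerase of that complex, was at 499, 229, 268 and 272 CPM in macrophages. Canx, a chaperone of free heavy chains, was lower in each RT library in tumor cells, macrophages and also in dendritic cells and lymphocytes, but higher in each in monocytes. The heavy chain paralogs H2-K1, H2-D1 and the H2-Q and H2-T genes are alike in sequence, and how reads common to them were assigned is not given in the sources used here.

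Ifng, the ligand, was read almost only in lymphocytes, which held 95.4%, 97.2%, 96.7% and 96.6% of its UMIs among all kept cells in NT, RT1, RT2 and RT3. Its level in them was 303, 548, 466 and 261 CPM, so RT3 lay below NT and RT1 and RT2 above. Lymphocytes were 3.76%, 2.37%, 3.94% and 2.18% of cells. Cd8a, the receptor chain that binds class I, was at 363, 271, 423 and 336 CPM in them and had no common direction.

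Tumor cells were not uniform in class I RNA. When they were clustered again into 17 sub-clusters, the median member was highest in a sub-cluster led by Ifit3b, Ifit3, Iigp1, Ifit1 and Usp18, at 0.84 ± 0.10 (SD, n = 4) on the log2 scale over the mean of the sub-clusters. It held 259 of 7165 tumor cells in NT (3.61%), 297 in RT1 (3.84%), 655 in RT2 (9.22%) and 430 in RT3 (4.81%). All 10 members were higher inside it than in other tumor cells in 4 of 4 libraries, as were 10.2% of 12591 genes. Since every gene of these cells could shape the sub-clusters, this is a description and not a test.

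Nlrc5 and Tap1 stood farthest apart there, whereas Tap2, the other transporter chain, was at 287, 192, 244 and 190.04 CPM inside against 153, 98.6, 133 and 111 outside. Nlrc5 was at 105, 89.9, 85.3 and 75.2 CPM inside the Ifit-led sub-cluster and 28.5, 21.9, 27.5 and 24.1 outside it. Tap1 was at 192, 219, 267 and 214 CPM inside and 54.2, 53.8, 94.8 and 57.5 outside. B2m differed less, at 4547, 5683, 5057 and 5110.2 inside against 3419.8, 3623, 3913 and 3511 outside. The higher Tap1 of RT2 was also seen outside the sub-cluster, where RT2 was again the highest library, and 20.4% of the Tap1 UMIs of RT2 tumor cells fell inside it.

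**Figure D5:**
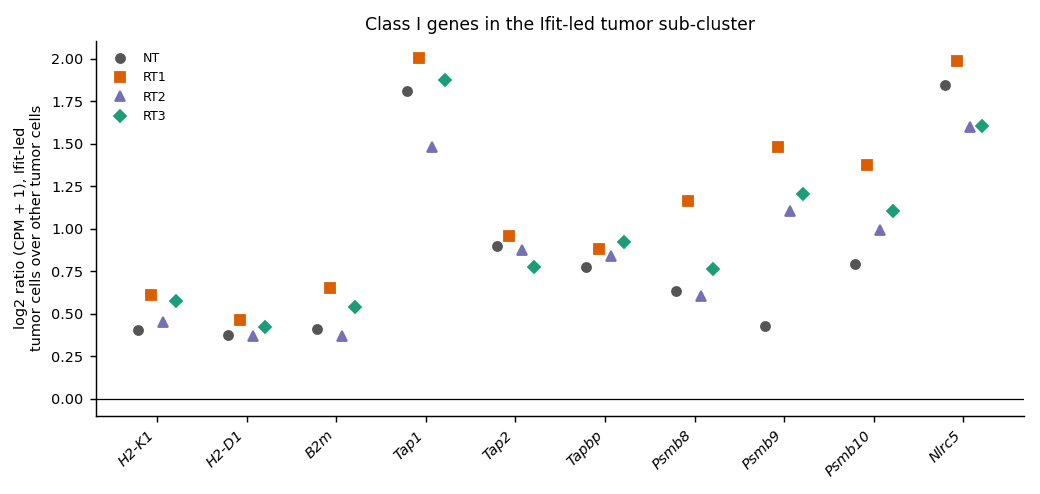
Log2 ratio of the level inside the Ifit-led tumor sub-cluster over the level in other tumor cells, after adding 1 CPM, for each member. Points are the 4 libraries. All points lie above 0, and Tap1 and Nlrc5 lie highest in each library.

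Next in order were a sub-cluster led by Id3, Ifi205, Hes1, Gm26532 and Ifi27l2a, at 0.30 ± 0.14, and 1 led by Ranbp3l, Gdpd2, Ogn, Clec11a and Ndn, at 0.29 ± 0.04, which did not differ beyond their spread. The lowest were a sub-cluster led by Nos2, Car9, Il33, Tmem45a and Bnip3, of which Car9 and Bnip3 are known hypoxia targets, at -0.50 ± 0.12, and 1 led by Ung, Aqp1, Mcm2, Klra4 and Uhrf1, with genes of DNA replication, at -0.43 ± 0.04. Their shares of tumor cells were 1.27%, 1.91%, 0.634% and 1.21% for the former and 7.01%, 5.90%, 4.01% and 7.26% for the latter. RT2 had the smallest share of both low sub-clusters and the largest of the Ifit-led one.

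The genes outside the pathway list whose level ran most like the members over 30 class and library sums were Gbp5, Clec2d, Plaat3, Gbp4, Ndufa3, Tacc1, Serpina3g, Ppp1r15a, Socs2 and Dtx3l. Pearson's r with the mean of the members, each first scaled to its own mean and SD, ranged from 0.77 for Gbp5 to 0.72 for Dtx3l, among 6248 genes compared. Gbp5 and Gbp4 encode guanylate-binding proteins known to be induced by interferon. Of the members themselves, Tap1 was nearest the common pattern, with r of 0.80, and H2-D1 farthest, with 0.31. Each member is part of that mean, so its r cannot be set beside those of the genes outside it. Sums of 1 library share its depth and sums of 1 class share its cell type, so these values only describe the 30 points.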

How the data were processed

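Cells of subcutaneous LLC tumors were read in 4 single-cell libraries made with a SeekOne 3′ kit. The authors processed the reads with SeekOne Tools and deposited UMI counts per gene and barcode as whole numbers without normalization, and the submitters' processing notes also name STAR 2.5.1b, Subread 1.6.4, featureCounts, Cell Ranger and GRCm39. How reads shared by paralogs were counted is not given in the sources used here. The members, gene lists and marker lists were chosen with earlier results of these data known, and the naming rule for clusters was settled after looking at clusterings.

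Barcodes were kept from 200 detected genes and up to 20% mitochondrial UMIs (9976, 15029, 14993 and 15060 in NT, RT1, RT2 and RT3). Between 2 libraries, 182 to 277 barcodes were shared by sequence. The 2000 most variable genes, 30 principal components, a rewritten Harmony integration and Leiden clustering (leidenalg 0.10.2, resolution 0.8, 20 neighbors) gave 19 clusters, of which 17 were named from marker genes. The members and the listed pathway genes were left out of the variable genes, and out of the leading genes of the tumor sub-clusters. No doublets were removed. Leaving out the 8% of barcodes with the highest doublet score was an alternative.

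UMIs were summed over each class in each library and scaled to CPM, and log2 ratios were formed after adding 1 CPM. Genes with a mean of at least 20 UMIs per library in a class were read across all genes. NT was 1 library, so no p-value was computed, and intervals cover counting error only. All 10 members were read in every class, though not every value is printed. Other pathway genes were named where past the fold or needed for a ratio. Irf1, Calr, Canx, Ifng, Cd8a, H2-Q4 and H2-T22 were added after their values were seen. Also named were the 10 most alike genes, and the 3 highest and 2 lowest tumor sub-clusters. Calculations used Python 3.11.15, numpy 2.4.6, scipy 1.17.1 and igraph 0.11.9. A further promoter motif that was searched is not reported here.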

Additional observations from a re-analysis of the deposited data

Results flagged for a closer look

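H2-K1, H2-D1 and B2m went opposite ways in different classes of the same libraries, every RT library above NT in 1 class and every RT library below it in another. The share of all genes that do so was not computed, so these differences only describe these genes. In tumor cells alone, 31% of genes tested were higher in each RT library and 31.7% lower in each. None of these differences was tested, since NT was 1 library. For H2-K1 the mean log2 ratio was 0.63 in macrophages and -0.30 in dendritic cells, a difference of 0.93, and it exceeded that of dendritic cells by 0.56 in tumor cells and by 0.55 in lymphocytes. For H2-D1 the macrophage ratio exceeded that of monocytes by 0.60 and that of dendritic cells by 0.90. For B2m the macrophage ratio exceeded that of monocytes by 0.29 and that of dendritic cells by 0.39, and the tumor cell ratio exceeded them by 0.25 and 0.35.

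In these comparisons all 3 genes share the NT cells of each class, 753 macrophages, 509 monocytes and 81 dendritic cells. Within the largest macrophage cluster alone B2m had ratios of 0.09, 0.10 and 0.12 in RT1, RT2 and RT3, against 0.16, 0.14 and 0.16 in all macrophages. It had 0.31, 0.23 and 0.18 in the Cd52 and Cd72 cluster and 0.04, -0.33 and 0.18 in the smallest. In the shallow macrophage cluster led by Cpa3 it had -0.02, -0.07 and 0.01.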

How the results depend on the processing

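Over the alternatives tried, 14 single-member log2 ratios gave 204 values, all of the sign first reported, and 187 moved by less than 1 SD. These 14 were a chosen part of the member ratios. They were H2-K1, B2m, Tap1, Tap2, Psmb8 and Psmb9 in tumor cells and H2-K1, H2-D1, B2m, Psmb8 and Psmb9 in macrophages. The rest were H2-D1, B2m and Psmb9 in monocytes. All but Psmb8 in tumor cells had every RT library on 1 side of NT, so leaving out an RT library could not change their sign. The medians, differences and the proteasome share gave 118 values, of which 113 moved by less than 1 SD and 112 kept their sign. The tumor cell median kept its sign in 15 of 16 values (lowest -0.046) and the monocyte median in 10 of 14. The lymphocyte median kept it in 13 of 14 (lowest -0.016), and the others kept it in every value. The medians and differences beyond 1 SD were these. At resolution 0.4 the dendritic cell median was -0.075. Without mitochondrial and ribosomal protein genes in the scaling, the tumor minus host difference was -0.70. Relative to the median gene of the class, the monocyte median was -0.12, and the tumor cell differences were -1.24 from macrophages and -1.24 from all named host cells.

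Counts of called members were less stable. In macrophages 2 were called, and 1 at resolution 0.4, 1 without integration and 1 relative to the median gene (H2-K1 each time), 1 with a pseudocount of 10 CPM and 0 at resolution 1.2. In tumor cells the 1 call (Psmb9) became 0 with 10 CPM, and in monocytes the 2 calls became 1 with 10 CPM and 1 relative to the median gene. At a log2 ratio of 1, 0 members were called in tumor cells, 0 in macrophages and 0 in monocytes. Leaving out each RT library in turn gave 1 to 3 calls in tumor cells, 2 to 4 in macrophages and 2 to 3 in monocytes. The high counts came without RT2, which added Psmb8 and Psmb10 as lower in tumor cells, H2-D1 as higher and Tap2 as lower in macrophages, and Psmb8 as lower in monocytes. The cause was not tested.

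The uses of the largest macrophage cluster alone, of macrophages without the Cpa3-led cluster, of tumor cells without the Ifit-led sub-cluster, and all repeats of the counts except the larger fold and a minimum of 100 UMIs were chosen after seeing the data. Neutrophils, fibroblasts and endothelial cells had too few NT cells for a median. No paired analysis was possible because NT was 1 library. Depth limits Psmb9, Psmb10 and Nlrc5, with 13, 5 and 25 UMIs in NT dendritic cells and 23, 13 and 49 in NT monocytes.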

Other observations

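Ifnb1, the gene of interferon beta, was highest in NT macrophages, at 234 CPM against 59.2, 11.1 and 93.9 in the irradiated tumors (RT1, RT2 and RT3 in order), and likewise in monocytes, at 75.5 CPM in NT against 17.4, 4.26 and 14.4. In dendritic cells it lay on both sides of NT, at 70.1 CPM in NT (13 UMIs) with log2 ratios of 0.04, 0.51 and -0.73. In tumor cells it was near 1 CPM in each library (0.75, 0.88, 0.80 and 1.01).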
